A study of Mus musculus with 4 samples.

Results

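Endothelial cells, the cells that line blood and lymph vessels, made up a small fraction of a sort that was aimed at the mesothelium of the embryonic mouse lung. Members were selected on measured values: a cell barcode was taken as endothelial when at least 3 of 6 vessel markers had a UMI (unique molecular identifier, a counted transcript molecule) and when Upk3b, a mesothelial surface gene, and Sftpc, an alveolar epithelial surfactant gene, both stood under 2 CP10k. CP10k is UMIs per 10000 UMIs of the barcode. The markers were Pecam1, Cdh5, Cldn5, Egfl7, Emcn and Cd93. Barcodes needed 1000 detected genes and a mitochondrial share of 15% or less to be considered. Of the 8733 that passed, 79 met the rule, and these are called members.

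Endothelium is a continuous sheet of cells held together by VE-cadherin and claudins, and it depends on VEGF signalling through the receptor encoded by Kdr. Vessels of different calibre carry different gene programmes: arteries use Notch signalling, gap junction proteins and SoxF factors, capillaries carry receptors such as that for apelin, veins use Nr2f2, and lymphatic vessels are specified by Prox1. In the fetal lung a dense capillary plexus grows around the branching airways, and the mesothelium covers the organ surface.

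The groups were Cre controls and Myrf mutants, with 2 libraries each, all from the lungs of mouse embryos. Myrf Fl/Fl;R26TdTomato/R26TdTomato mice were mated with Wt1creERT2;Myrf Fl/Fl mice, and the dams received tamoxifen at E12.5. Lungs were collected at E16.5, where E stands for embryonic day. Tamoxifen, the tdTomato reporter and Cre were thus shared by both groups, as far as the labels go. The labels do not spell out the Myrf alleles of the controls, and the mating as written carries floxed Myrf on both sides. Wt1creERT2 is a tamoxifen-dependent Cre placed under the control of Wt1, which is active in mesothelium, and recombined cells pass the active reporter on when they divide. Lungs were assigned to a genotype by the look of the lung and its cells and later by PCR. Cells positive for tdTomato and negative for DAPI, from 3 to 5 pooled lungs per genotype, were sorted and profiled by droplet 3' single-cell RNA sequencing. Whether replicate libraries came from separate pools is not stated, so p-values measure only the spread between these libraries, which may be technical. The files hold no row for the reporter or for Cre, so recombination could not be checked in the members.

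Libraries numbered 1 were small, with 282 kept barcodes in the control and 412 in the mutant, while those numbered 2 had 3607 and 4432. Most kept barcodes of control library 2, 2721 of 3607, held at least 2 CP10k of Upk3b, against 25 of 4432 in mutant library 2. At most 5 kept barcodes were shared between any pair of libraries, and no member was shared.

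Endothelial members were found in every library, 13 and 13 in controls and 10 and 43 in mutants. They made up 4.61% of kept barcodes in control library 1 (exact 95% binomial interval 2.48 to 7.75%) and 0.360% in control library 2 (0.192 to 0.616%). In mutant libraries 1 and 2 they made up 2.43% (1.17 to 4.42%) and 0.970% (0.703 to 1.30%). The small libraries numbered 1 had the higher shares, and the genotypes overlapped. The mean was 2.49 ± 3.00% in controls and 1.70 ± 1.03% in mutants (SD, n = 2 each; two-sided exact permutation p = 1, where 2 against 2 libraries cannot go below 0.333). Without control replicate 1 the difference of -0.79 percentage points turned to 1.34. Over barcodes under 2 CP10k of Upk3b alone, the means were 4.99 and 1.71%, a difference of -3.28 (exact permutation p = 0.667). Intervals cover counting error only.

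**Figure D1:**
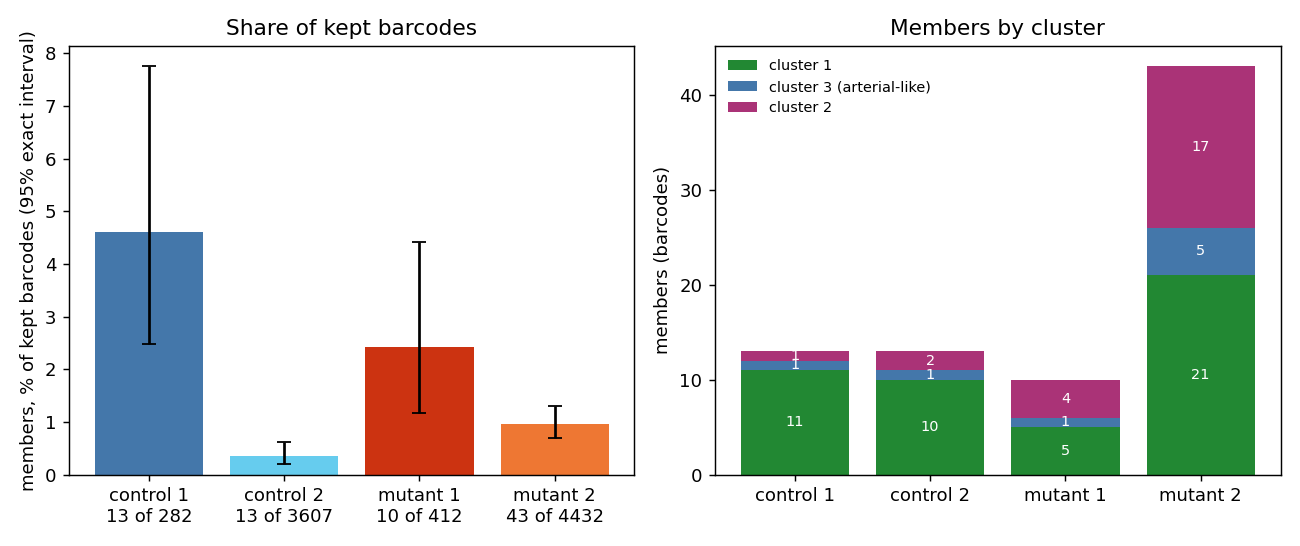
Left, members as a percentage of kept barcodes in each library, with exact 95% binomial intervals; right, the number of members in each of 3 clusters per library. Control library 1 has the highest share (4.61%), control library 2 the lowest (0.360%), and mutant library 2 holds 43 of the 79 members.

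The 6 rule markers chose the members, so their levels are a description. Here and below, CPM are the UMIs of a gene summed over the members of a library, per 1000000 UMIs of those members. Cdh5 (VE-cadherin, the adherens junction protein of endothelium, chromosome 8, 104101625 to 104144511 in mm10) reached 1234 and 907 CPM in the control libraries, against 702 and 645 CPM in the mutant ones. Such sums cannot tell fewer cells of a type from less RNA per cell. Egfl7, a protein secreted by vessel cells (chromosome 2, 26580014 to 26593120), stood at 1009, 711, 453 and 564 CPM in the order control 1, control 2, mutant 1, mutant 2, which is used below wherever 4 values are given. Pecam1 (CD31, chromosome 11, 106654217 to 106750628) was at 806, 544, 547 and 486 CPM. Emcn (endomucin), Cldn5 (a tight junction claudin) and Cd93 were lower in both mutants than in both controls as well, while Pecam1 overlapped. Thus 5 of the 6 lay below both controls, beside 13.7% of all genes tested. Over clusters 1 and 3, which are described below, 0 of the 6 did, and their median log2 change was -0.07. In the 5696 other barcodes with under 2 CP10k of Upk3b, Cdh5 lay between 0.144 and 0.586 CPM across the libraries and Pecam1 between 0.517 and 4.40 CPM. Those barcodes had failed the rule, which fixes part of this contrast, so it is a description too. With every barcode thinned to 1500 UMIs, Cdh5 had a UMI in 54.4% of members and in 0.0878% of those other barcodes (unthinned 87.3 and 0.404%), whose median depths were 8986 and 17272 UMIs.

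All 6 markers were present in 45 members, 5 in 12, 4 in 7 and 3 in 15. A further 16 barcodes had at least 3 markers but were removed by the Upk3b or Sftpc limit, 15 of them in control library 2. The 15 members just inside the rule, with 3 markers, held a median of 11.2 CP10k of rule markers and 41.3 CP10k of fibroblast genes. Just outside lay 66 barcodes with 2 markers, with medians of 0.723 CP10k of rule markers and 46.1 CP10k of fibroblast genes. The rule asks for a UMI and not for a level, so a deep barcode can meet it with few molecules: a member of mutant library 1 with 226622 UMIs held 3 markers at a summed 0.309 CP10k.

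Genes that the rule did not read were checked against the endothelial label. A list of 34 pan-endothelial genes, among them Kdr, Tek, Tie1, Esam, Ramp2 and the transcription factors Erg, Fli1 and Sox17, summed to 9213 and 6046 CPM in the members of controls and to 5394 and 5743 CPM in the mutant ones. In the other barcodes under 2 CP10k of Upk3b it summed to 347, 371, 254 and 262 CPM. Cluster 2 of the members, which is described below, summed to 1664, 362, 2159 and 1124 CPM. In control library 2, where it held 2 members, cluster 2 thus lay below the other barcodes, and in the remaining libraries above them. The sum over all members of a library lay above the other barcodes in every library. Kdr, the main VEGF receptor, stood at 464, 483, 377 and 468 CPM, and Ramp2, a subunit of the adrenomedullin receptor, at 965, 774, 413 and 717 CPM. Ramp2 was also present in the other barcodes at 27.7 to 64.9 CPM.

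The 79 members fell into 3 clusters, of which 1 could be named by a vessel type. Cluster 3 held 8 members and was arterial-like. Cluster 1 held 47 members, of which 45 had at least 20 CP10k of pan-endothelial genes and 2 had at least 20 CP10k of mesenchymal genes. Cluster 2 held 24 members whose leading genes went against the endothelial label. The clusters were built from these cells' own genes, so the genes below describe them and were not tested. Median summed levels of the 34 pan-endothelial genes were 76.8 CP10k in cluster 1, 122.7 CP10k in cluster 3 and 17.8 CP10k in cluster 2. Median UMIs per member were 8986, 17013 and 8446 in clusters 1, 3 and 2.

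**Figure D2:**
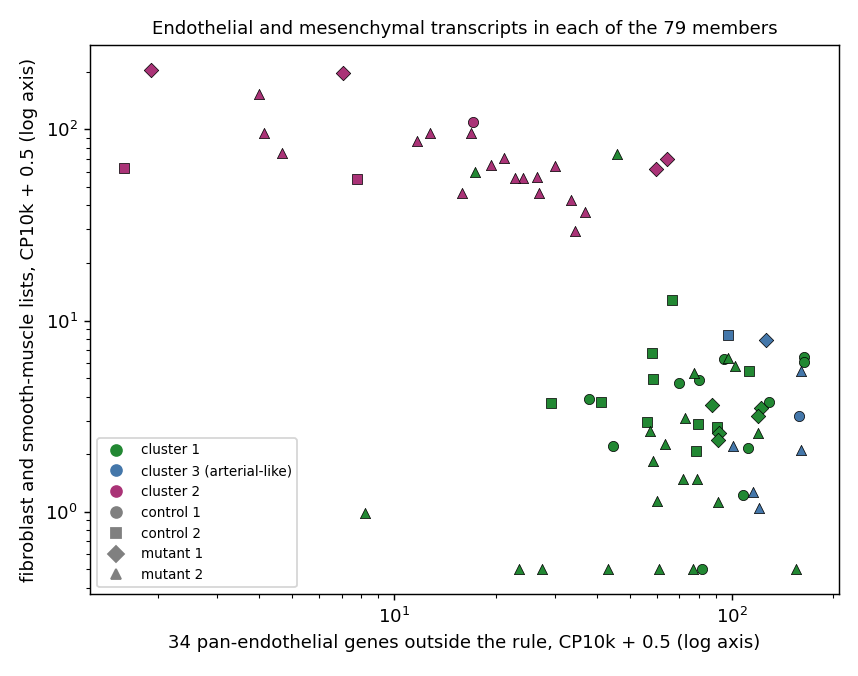
Each point is 1 of the 79 members; the x axis sums 34 pan-endothelial genes that the rule did not use and the y axis sums fibroblast and smooth-muscle genes, both in CP10k plus 0.5 on log axes, with colour for cluster and symbol for library. All 24 members of cluster 2 lie above 20 CP10k of mesenchymal genes, with 2 of 47 members of cluster 1 and none of the 8 of cluster 3.

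Cluster 1 combined the pan-endothelial genes with Aplnr and Kit, both on the capillary list. It was not named for that list, because the 12 capillary genes had a median sum of 19.0 CP10k in cluster 1 and 74.1 CP10k in cluster 3. Without Cxcl12 the medians were 16.1 and 19.9 CP10k. Aplnr, the apelin receptor, had a UMI in 38 of 47 members and averaged 3.21 CP10k, and Kit, the stem cell factor receptor, had a UMI in 38 and averaged 4.09 CP10k. Plvap, the diaphragm protein of endothelial fenestrae and caveolae, was found in 40 members at a mean of 3.34 CP10k. Gpihbp1, which anchors lipoprotein lipase in capillaries, was found in 31, and the fatty acid transporter Cd36 in 27. In arterial-like cluster 3 Aplnr averaged 0.11 CP10k, while Plvap averaged 4.05 CP10k and Cd36 1.75 CP10k, against 1.59 CP10k of Cd36 in cluster 1.

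Lyve1, a hyaluronan receptor best known from lymphatic vessels and some macrophages, was found in cluster 1 and, in 11 of 24 members, in cluster 2. It had a UMI in 33 of 47 members of cluster 1 at a mean of 4.68 CP10k and in 0 of 8 members of cluster 3, which allows a share of up to 37.5%. Thinned to 1500 UMIs, it was detected in 46.8% of cluster 1 and in 0.263% of the other barcodes under 2 CP10k of Upk3b. By level it stood in those other barcodes at 0.791 to 2.25 CPM, against 194 to 589 CPM in the members of the 4 libraries. Stab2, another hyaluronan receptor, was found in 13 members of cluster 1. Glp1r, Ackr3, an atypical chemokine receptor, and several replication-dependent histone genes (Hist1h2ab, Hist1h2af, Hist1h4h, Hist1h4c) completed the leading genes of the cluster.

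Haemoglobin transcripts also led cluster 1, through a few barcodes. Hbb-bs, adult beta globin, had a UMI in 15 of its 47 members, and 12126 of the 16633 Hbb-bs UMIs in all members came from 1 barcode of mutant library 2 that held 254014 UMIs in all. Hba-a1 had 4024 of its 6752 UMIs in the same barcode. The erythroid list summed to 3889 and 3803 CPM in control members, 15.9 CPM in mutant library 1 and 35851 CPM in mutant library 2. Haemoglobin genes were left out of the clustering, and whether these transcripts lay inside the cells was not tested.

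Cell cycle genes separated cluster 1 from cluster 3, although genes that follow the cycle were also left out of the clustering. A list of 25 such genes had a median sum of 59.1 CP10k in cluster 1 (range 1.94 to 208 CP10k), 48.6 CP10k in cluster 2 and 5.11 CP10k in cluster 3 (range 1.24 to 6.70 CP10k). Mki67, the proliferation antigen, had a UMI in 32 of 47 members of cluster 1 and in 1 of 8 of cluster 3. Top2a, a topoisomerase of dividing cells, had a UMI in 37 and in 1. Cluster 3 was deeper by median UMIs, so its lower detection did not go with lower depth. Thinned to 1500 UMIs, Mki67 was detected in 17 of 47 and 0 of 8 members.

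Arterial-like cluster 3 held 8 members, 1 in each control library, 1 in mutant library 1 and 5 in mutant library 2. Cxcl12, a chemokine, was present in all 8 at 19.96 to 122 CP10k, while only 8 of the other 71 members had a UMI of it. In the 2 control members Cxcl12 stood at 39.3 and 53.0 CP10k, in the member of mutant library 1 at 62.1 CP10k, and in those of mutant library 2 at 19.96, 52.4, 76.4, 92.9 and 122 CP10k. The control values lay inside the range of mutant library 2. Cxcl12 stood on the capillary list of the marker lists used here, but these data place it in the cluster with the gap junction genes.

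The arterial programme was present in its main parts. Gja4 (connexin 37) had a UMI in 7 of the 8 members at a mean of 8.92 CP10k, and Gja5 (connexin 40) in 6 at a mean of 1.51 CP10k, against 10 and 3 of 47 members in cluster 1. Sox17, a SoxF transcription factor of arteries, was present in all 8 at 2.48 to 11.1 CP10k, and Efnb2 (ephrin B2, the arterial membrane ligand) in all 8 at 2.58 to 7.44 CP10k. The Notch target Hey1 and the Wnt modulator Dkk2 each had a UMI in 6 of 8 members, and the netrin receptor Unc5b in all 8 at a mean of 2.40 CP10k. Edn1, the vasoconstrictor endothelin 1, averaged 4.79 CP10k in cluster 3, 0.54 CP10k in cluster 1 and 0 in cluster 2. Of the arterial list, Hey2 had no UMI in the cluster, and Bmx, a kinase of large-artery endothelium, had a UMI in 3 members. Tmem100, a target of BMP9-ALK1 signalling, and Stmn2, Tm4sf1, Rbp7, Slc6a6, Depp1 and Atp13a3 were the other leading genes.

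Receptors and ligands of the main vascular pathways were shared by clusters 1 and 3, at different levels. Among VEGF receptors, Kdr averaged 4.63 CP10k in cluster 3 and had a UMI in 41 of 47 members of cluster 1 and 8 of 8 of cluster 3. Flt1 (the decoy receptor) averaged 1.81 CP10k in cluster 1 and 5.07 CP10k in cluster 3, and the co-receptor Nrp1 2.89 and 6.63 CP10k. Angiopoietin receptors were detected in both, with Tie1 at 2.51 and 4.33 CP10k and Tek at 1.63 and 2.23 CP10k, whereas their ligands Angpt1 and Angpt2 had 24 and 19 UMIs in all 79 members. Pdgfb, which recruits pericytes, averaged 2.76 and 4.78 CP10k. Notch1 averaged 1.28 and 1.93 CP10k, and its ligands Dll4 and Jag1 were at 0.44 and 0.14 CP10k in cluster 1 and 0.94 and 1.15 CP10k in cluster 3, where 54 of 64 Jag1 UMIs came from 1 member. The ALK1 receptor Acvrl1 averaged 1.70 and 2.92 CP10k. The basement membrane collagen Col4a1 averaged 18.9 CP10k in cluster 1 and 18.7 CP10k in cluster 3.

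**Figure D3:**
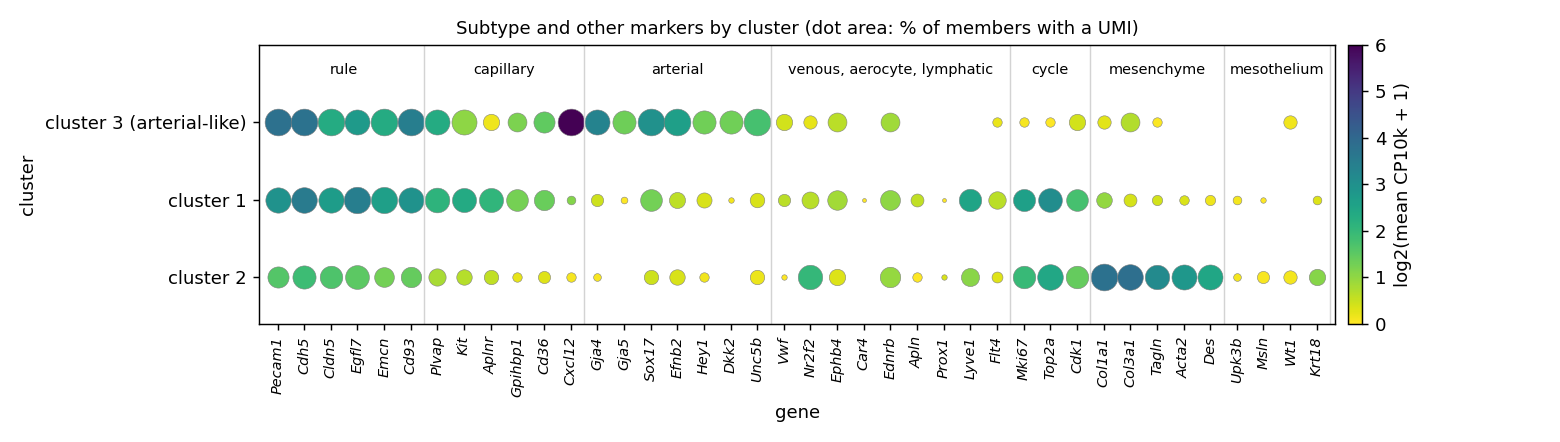
Markers (x axis) by cluster (y axis): dot area is the percentage of members with a UMI and colour is log2(mean CP10k + 1). Cxcl12, Gja4, Gja5 and Sox17 are largest and darkest in cluster 3, cycle genes and Lyve1 in clusters 1 and 2, and collagen and muscle genes in cluster 2.

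Other vascular types were rare or not detectable at this depth. Car4, the marker of the alveolar capillary cells called aerocytes, had 3 UMIs in all, in 1 member of control library 1, and other genes of that list, such as Ednrb and Kitl, were shared by the clusters. Of venous genes, Ackr1 and Selp had no UMI in any member, and 0 of 79 members allows a share of up to 3.80% with a UMI. Ephb4, the venous ephrin receptor, had a UMI in 25 members of cluster 1 at a mean of 0.78 CP10k, and Vwf had 30 of its 60 UMIs in 1 member of control library 1. That member held 80.8 CP10k of the venous list and 1.94 CP10k of the cell cycle list, the lowest of cluster 1. Another member of cluster 1, in mutant library 2 and with all 6 markers, held 40.0 CP10k of the venous list and 8.79 CP10k of the cell cycle list. Prox1, the lymphatic master regulator, had 18 of 19 UMIs in 1 member of mutant library 2, which also held all 8 UMIs of Reln and 12 of Flt4 (VEGF receptor 3). This lymphatic profile lay in cluster 2, with 41.2 CP10k of fibroblast genes.

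Immune and platelet genes lay in a few barcodes. A member of mutant library 2 in cluster 1 with 4 markers and only 7.70 CP10k of pan-endothelial genes held all 22 UMIs of Csf1r, the macrophage growth factor receptor, and 47 of 68 UMIs of Tyrobp. Another of mutant library 2, in cluster 2, held 109 of 146 UMIs of Lyz2, a lysozyme of myeloid cells. The only 7 UMIs of Ppbp, a platelet chemokine, came from 1 member of control library 2 that had all 6 markers. Sftpc, limited by the rule, had 20 UMIs in all members.

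The 24 members of cluster 2 carried fewer endothelial and many mesenchymal transcripts. Their leading genes included Mgp, Col3a1, Des, Ccl2, Meg3, Tagln, Col1a2, Iigp1 and Acta2, mostly matrix and contractile genes. Col3a1, a fibrillar collagen, had a UMI in 22 of 24 members at a mean of 13.1 CP10k, against 0.311 CP10k in cluster 1, and Des, the muscle intermediate filament, in 21 at 4.44 CP10k, against 0.11 CP10k. Their summed fibroblast and smooth-muscle genes ranged from 28.9 to 205 CP10k, with a median of 64.0 CP10k, against a median of 2.39 CP10k in cluster 1. Pan-endothelial genes were under 10 CP10k in 7 of the 24 and at or above 20 CP10k in 11.

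At the resolution used, cluster 2 made up more of the mutant members than of the control members. It held 1 of 13 and 2 of 13 control members (7.69 and 15.4%) and 4 of 10 and 17 of 43 mutant members (40.0 and 39.5%). The exact 95% intervals of the controls ran from 0.195 to 36.0% and from 1.92 to 45.4%. Those of the mutants ran from 12.2 to 73.8% and from 24.98 to 55.6%, so they overlapped. The means differed by 28.2 percentage points, and by 14.3 at Leiden resolution 1. There 6 clusters formed, and the matching one shared only 12 of the 24 members of cluster 2. This part held 11.6% of mutant library 2 and 40.0% of mutant library 1, so for it the genotypes overlapped. No test was made, since the cluster was drawn from the same genes. The Upk3b or Sftpc limit had removed 0, 15, 1 and 0 barcodes with at least 3 markers from the 4 libraries. These 16 barcodes had medians of 74.6 CP10k of fibroblast genes and 4.01 CP10k of pan-endothelial genes, a profile close to that of cluster 2. How this limit affected the cluster 2 shares, or the tests between genotypes below, was not tested. Members with both Xist and a Y-linked transcript numbered 5 of 24 in cluster 2, 2 of 47 in cluster 1 and 0 of 8 in cluster 3. Removing the barcodes with the highest doublet scores took none of cluster 2. It took only 1 barcode in each library numbered 1, and the tool's own threshold had failed. The removal therefore cannot tell whether cluster 2 held doublets. Whether the barcodes of cluster 2 held 1 cell or several was not tested further.

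Mesothelial transcripts other than Upk3b were present in the members at a low level, and most of them lay in cluster 2. A list of 29 mesothelial genes summed to 98.2, 126, 81.7 and 47.5 CPM over clusters 1 and 3 of the 4 libraries. In cluster 2 it summed to 188, 362, 786 and 761 CPM, on 1, 2, 4 and 17 members. In the other barcodes under 2 CP10k of Upk3b the list summed to 387, 552, 963 and 451 CPM, and in barcodes at or above 2 CP10k of Upk3b to 7855, 4750, 6977 and 3673 CPM. The members of clusters 1 and 3 therefore lay below both of these sets in every library. In mutant library 2, 1 member just under the Upk3b limit held 123 of the 178 UMIs in cluster 2, and without it cluster 2 there summed to 395 CPM. Over all members the list summed to 110, 158, 511 and 240 CPM, a mutant mean 242 CPM above the control mean. Without that member mutant library 2 summed to 110 CPM and the difference was 177 CPM. Mutant library 1 also leaned on 1 member, the barcode with 226622 UMIs, which held 10.1 CP10k of the list with Upk3b counted. It was the only member there with 3 markers. The other 9 members of that library held 159 of its 385 UMIs of the list, or 302 CPM. With cluster 2 left out the difference was -47.4 CPM. The choice of barcodes with low Upk3b fixes part of this, so it is a description.

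**Figure D4:**
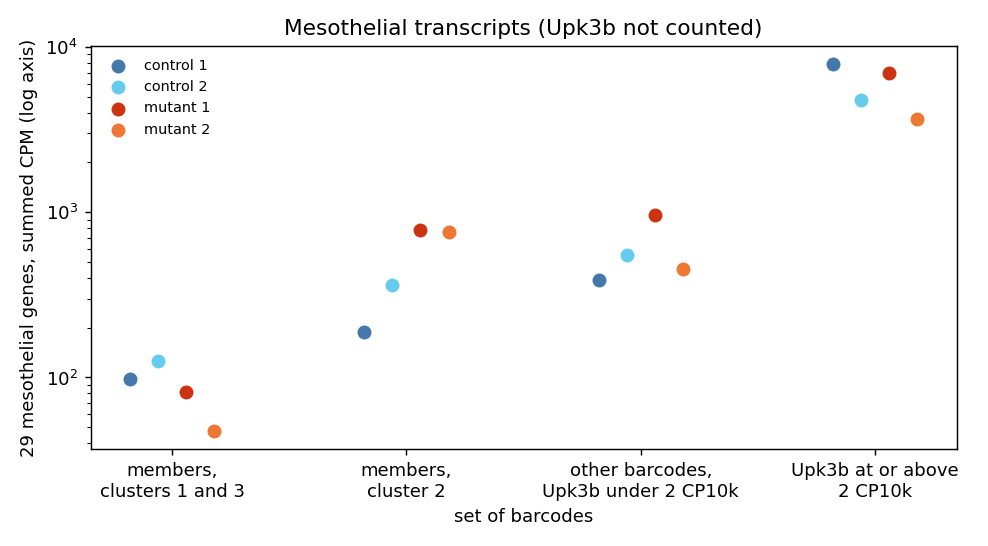
Summed CPM of 29 mesothelial genes (log axis, Upk3b not counted) in 4 sets of barcodes, 1 point per library. Clusters 1 and 3 lie between 47.5 and 126 CPM, cluster 2 between 188 and 786 CPM, and barcodes with at least 2 CP10k of Upk3b between 3673 and 7855 CPM.

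The genes that define mesothelium were close to 0 in the members of clusters 1 and 3. Lrrn4, Muc16 and Bnc1 had no UMI there, Msln (mesothelin) had 2, Krt19 (a simple epithelial keratin) 1, and Upk1b 3, among 1659756 UMIs. The list's 140 UMIs in these 55 members came from 20 of 29 genes, led by Ildr2 (42 UMIs) and Npnt (28 UMIs). Ildr2 stood at 25.3 CPM in clusters 1 and 3 and at 8.44 CPM in the other barcodes under 2 CP10k of Upk3b, and it was the higher in clusters 1 and 3 in each library. Aldh1a2, a retinoic acid synthesis enzyme of mesothelium, stood at 6.02 CPM in clusters 1 and 3 and at 695 CPM in barcodes at or above 2 CP10k of Upk3b.

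Myrf and Wt1, the targeted gene and the site of the Cre driver, were almost absent from clusters 1 and 3. Myrf (chromosome 19, 10208272 to 10240748) had 1 UMI in each control library and 0 in each mutant library over clusters 1 and 3. Wt1 (chromosome 2, 105126529 to 105173616) had 1, 0, 0 and 1 UMI. At these counts no difference between genotypes was detectable. In cluster 2 Myrf had 12 UMIs and Wt1 18, and 8 and 10 of these came from the member of mutant library 1 with 226622 UMIs. The sources used here do not name the floxed exons, so the 3' counts of Myrf do not check the deletion.

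Upk3b itself (chromosome 5, 136038496 to 136046487) had 25 UMIs in 7 members, and 16 of them lay in 1 member of mutant library 2, in cluster 2. That member had 3 markers, 1.69 CP10k of Upk3b, just under the limit of 2, 14.7 CP10k of the mesothelial list with Upk3b counted and all 14 UMIs of Lrrn4. It held 3.48 CP10k of pan-endothelial genes and 101 CP10k of fibroblast genes.

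Between genotypes, UMI counts were summed over the members of each library and compared with edgeR's quasi-likelihood test. Members with Xist and no Y-linked transcript numbered 5, 4, 6 and 35. Those with a Y-linked transcript and no Xist numbered 4, 5, 1 and 2. The sex make-up of the members thus differed between the groups. The fit held no term for sex, so differences by sex and by genotype cannot be told apart here. Of 7697 genes tested, 14 passed at a Benjamini-Hochberg adjusted p under 0.05, a share of 0.182%, and all 14 were higher in mutants. None was lower: 114 lower genes had an unadjusted p under 0.05 by edgeR, and the 19 genes called by DESeq2 were all higher. Called genes that were lower in mutants appeared when 1 library was left out: 2 of 4 without control replicate 2, 9 of 53 without mutant replicate 1 and 26 of 202 without mutant replicate 2. Of the 9 smooth-muscle genes tested 5 were called, all higher, and the other 9 called genes were on no list.

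Tagln, an actin-binding protein of smooth muscle (chromosome 9, 45929619 to 45936058), showed the smallest adjusted p. Its UMIs numbered 0, 1, 795 and 223, which is 0, 1.73, 1055 and 258 CPM. The log2 change was 8.85 ± 0.96 (SE, n = 2 per group, edgeR adjusted p = 0.00252). Acta2, smooth muscle actin (chromosome 19, 34241090 to 34255590), stood at 66.3, 8.65, 834 and 250 CPM (log2 change 4.05 ± 0.73, edgeR adjusted p = 0.0464). Acta2 did not pass with DESeq2 (adjusted p = 0.429) or, by edgeR, without the highest doublet scores (adjusted p = 0.0597), and its adjusted p ran from 1.11e-13 to 0.99996 over all other settings that tested it. Des stood at 0 and 12.1 CPM against 162 and 104 CPM, and the troponin gene Tnnt2 at 0 and 1.73 CPM against 365 and 64.7 CPM.

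Actc1, cardiac alpha actin, had no UMI in either control and 137 and 30 UMIs in mutants, at least 29.2-fold above the level of 3 UMIs over both controls (edgeR adjusted p = 0.0391, DESeq2 adjusted p = 0.171, range over the other settings 3.02e-17 to 0.622). In all 5 of these muscle genes mutant library 1 was the higher mutant. Both mutants lay above both controls for each of them, as for 14.9% of the 7697 genes tested. In mutant library 1, 136 of the 137 Actc1 UMIs came from 1 member. For Acta2 and Des, 468 of 628 and 97 of 122 UMIs of that library came from 1 member each. Lgals1, a galectin, was the most abundant of the 14, at 58.9, 114, 721 and 595 CPM. S100a6, a calcium-binding protein, stood at 18.4 and 20.8 CPM against 181 and 247 CPM. The others, Lsp1, Cryab, Clu, Ecrg4, Adamts5, Nupr1 and Sema3d, had log2 changes between 3.19 (Lsp1) and 5.38 (Sema3d, a secreted semaphorin). Adamts5 encodes a secreted protease of extracellular matrix.

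Cluster 2 held most molecules of these genes. In mutants it held 1006 of 1018 Tagln UMIs, 835 of 844 of Acta2, 943 of 1058 of Lgals1 and all 113 and 92 of Adamts5 and Sema3d. The lowest share in cluster 2 among the 14 was 89.1%, for Lgals1. The smooth-muscle list summed to 250, 239, 4095 and 966 CPM in all members and to 145, 128, 170 and 69.7 CPM over clusters 1 and 3. The fibroblast list summed to 1447, 1258, 5707 and 1983 CPM in all members and to 89.6, 685, 187 and 111 CPM over clusters 1 and 3.

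With cluster 2 left out, an alternative added after seeing the data, no gene passed among 5864 tested (0%, edgeR), with 127 at an unadjusted p under 0.05 and a smallest adjusted p of 0.186. Only 2 of the 14 genes were still abundant enough to be tested. Lgals1 had a log2 change of 1.57 ± 0.47 and S100a6 of 0.997 ± 0.542 (edgeR adjusted p = 0.99998 for both). For both genes the mutants lay above the controls, as for 11.2% of the 5864 genes. No other tool was run on this subset.

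The count of 14 rested on single libraries. It was 0 without control replicate 1, 4 without control replicate 2, 53 without mutant replicate 1 and 202 without mutant replicate 2. These fits take the spread of the lone library from the other group. Without control replicate 1, 276 genes had an unadjusted p under 0.05. The deepest barcode held 20.5 to 47.6% of the member UMIs of a library.

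No gene of the vascular lists passed the test between genotypes. Of the 34 pan-endothelial genes, all were tested, 0 passed by edgeR (3 at an unadjusted p under 0.05), and the median log2 change was -0.47, beside -0.000465 for all 7697 genes. Of all genes tested, 359 (4.66%) had an unadjusted p under 0.05, against which these list counts are to be read. Both mutants lay below both controls for 15 of the 34, beside 13.7% of all genes. Over clusters 1 and 3 the median was 0.05 and 2 of 34 lay below both controls, beside 12.7% of all genes. Tie1, a receptor of the angiopoietin system, stood at 346, 225, 145 and 162 CPM, with a log2 change of -0.86 ± 0.37 in all members (edgeR adjusted p = 0.987) and -0.35 over clusters 1 and 3.

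No gene of the subtype lists passed either. Of the arterial list 15 of 17 genes were tested and 0 passed (3 at an unadjusted p under 0.05), with a median log2 change of 0.03. Over clusters 1 and 3, 13 arterial genes were tested and 0 passed by edgeR. Their median was 0.51, with 10 above 0 and 3 below. Of these 13, 5 had an unadjusted p under 0.05, beside 2.17% of all 5864 genes tested. Of the capillary list 12 of 12 were tested and 0 passed (3 at an unadjusted p under 0.05), with a median of -0.22. Cxcl12 stood at 335, 106, 657 and 1036 CPM. The log2 change of 2.03 ± 0.53 did not pass (edgeR adjusted p = 0.283), nor did that of 2.71 ± 0.58 over clusters 1 and 3 (edgeR adjusted p = 0.522), although both mutants lay above both controls. Such an order was found for 14.9% of all genes tested over all members and 11.2% over clusters 1 and 3. Of the arterial-like members 6 of 8 came from mutants, beside 53 of all 79 members. Over clusters 1 and 3 alone, the arterial-like members were 1 of 12, 1 of 11, 1 of 6 and 5 of 26 in the 4 libraries. These shares were 8.33, 9.09, 16.7 and 19.2%, higher in both mutants, and no test was made. The sums over clusters 1 and 3 thus cannot tell more arterial-like members from more RNA per cell. Kit stood at 475, 235, 188 and 154 CPM (log2 change -1.01 ± 0.40, edgeR adjusted p = 0.900).

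Among VEGF, angiopoietin-Tie, Notch and BMP9-ALK1 genes, 9, 3, 12 and 12 were tested and 0 passed in each by edgeR, with 1, 1, 2 and 0 at an unadjusted p under 0.05. Their median log2 changes were -0.02, -0.30, -0.05 and -0.04. Of 27 endothelial transcription factors tested 0 passed (2 at an unadjusted p under 0.05), and of 25 cell cycle genes 0 passed (0 at an unadjusted p under 0.05), with medians of -0.29 and -0.25. The angiocrine list, which holds ligands that vessels send to other cells, had 12 of 21 tested genes at an unadjusted p under 0.05 and 0 passing, with a median of 0.35. Several of these are also made by stroma, such as Igf1, at 3.68, 38.1, 373 and 57.8 CPM. The mean of Igf1 was 1.85 CP10k in cluster 2 and 0.16 CP10k in cluster 1. Over clusters 1 and 3, 13 angiocrine genes were tested and 0 passed by edgeR, with a median log2 change of 0.30. Of these 13, 4 had an unadjusted p under 0.05, beside 2.17% of all 5864 genes tested. How much of the angiocrine result came from stroma was not tested.

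The size of change that the design could show was limited. In simulated data with the members' depth and spread, 12% of genes changed 2-fold, 80% of those changed 4-fold and 98% of those changed 8-fold were recovered among 7323 genes. The changed genes were drawn only from the more abundant ones, so recovery of scarcer genes was not measured. A vascular gene changed 2-fold between genotypes would usually not have passed.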

How the data were processed

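Sorted lung cells of 4 libraries (2 controls, 2 Myrf mutants) were used. The deposited values were raw UMI counts per gene and barcode, made by the authors with Cell Ranger 6.0.2 on mm10, per the submitters' processing notes. The annotation release, cell calling settings and strand use are not given in the sources used here. Gene locations are from GENCODE vM21, which matched 32158 of 32285 gene IDs. The members and the gene lists were chosen with earlier results of these data known.

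Members were clustered in scanpy 1.11.5: log CP10k, 2000 variable genes without mitochondrial, ribosomal, haemoglobin, sex-linked and cell cycle genes (the list and 123 genes that correlated with it above 0.4), 20 principal components, 15 neighbours, Leiden resolution 0.5. A cluster was called X-like only from the marker lists. Scrublet marked 9 of 8733 barcodes by its own threshold, which was judged a failure. Doublets were therefore kept, and removing the 263 highest scores was an alternative.

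UMI counts were summed over members per library, since cells are not replicates. Totals were 271565, 577722, 753414 and 865019 UMIs. The main test was edgeR's quasi-likelihood test (version 4.0.16 on R 4.3.3), with filterByExpr, TMM scaling and a threshold of 0.05 on Benjamini-Hochberg adjusted two-sided p. DESeq2 1.42.0 was an alternative. The fit was tested on simulated data, with 7 false calls among 7323 genes. Chi-square over its degrees of freedom between replicate libraries was 6.55 for the controls and 13.2 for the mutants, so replicates differed by more than counting error. This cannot tell whether they came from separate pools. Each library was counted once in the fits. Named genes are the rule genes, Myrf, Wt1, up to 10 largest called rises and falls, 10 leading genes per cluster (1 is not reported here), and list members with at least 20 UMIs or that define a list. Lgals1, S100a6, Lsp1 and Cryab fall outside the 10 rises and were named after their values were seen. Alternatives were other marker numbers, filters, denominators, normalizations, thinning to 5000 UMIs, clustering at a finer resolution and leaving out each library.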

Additional observations from a re-analysis of the deposited data

How the results depend on the processing

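Against 14 genes called by edgeR between genotypes, 17 were called with RLE size factors (all 14 among them), 19 with DESeq2 (11 of the 14 among them, without Acta2 and Actc1, while Sema3d had no adjusted p) and 12 without the highest doublet scores (not Acta2 or Lsp1). The count moved to 0 with no low-count filter, 0 with at least 4 of 6 markers, 4 with at least 2 of 6 markers, and 1 with members found after thinning to 5000 UMIs. It was 0 with cluster 2 left out and 5 with each member thinned to at most 5000 UMIs, both added after seeing the data. At a count of 0, genes with an unadjusted p under 0.05 numbered 552 with no low-count filter, 150 with at least 4 markers and 127 with cluster 2 left out. Leaving out 1 library gave 0 to 202. With the replicate number as a block, 49 genes were called (44 higher, 5 lower, all 14 among them). The numbers are not stated to pair the libraries, and the correlation of same-numbered deviations was 0.17. No named gene of the 14 changed sign in any fit that tested it. The cause of these moves was not tested, except that fewer genes were tested with fewer members or UMIs (1161 after thinning each member).

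The difference in member share (-0.79 percentage points) kept its sign in all 8 other settings, was -3.28 over barcodes under 2 CP10k of Upk3b and -1.26 with cluster 2 left out, and ranged from -2.91 to 1.34 when 1 library was left out. It was reversed, at 1.34, without control replicate 1. The mesothelial list differed by 242 CPM (mutant minus control). It differed by 71.5 with at least 4 of 6 markers, by 1.89 with members found after thinning to 5000 UMIs, by 177 without the member with the most Upk3b (added after seeing the data), by -47.4 with cluster 2 left out, and by 106 to 377 without 1 library. The arterial-like share differed by 3.12 percentage points, 4.52 with at least 4 markers, 15.8 with thinned membership, 3.96 without the highest doublet scores and 4.28 at Leiden resolution 1. Without 1 library it ranged from -4.57 (without control replicate 2, reversed) to 4.28, and without mutant replicate 2 no matching cluster formed. With cluster 2 left out, the arterial-like shares were 8.33 and 9.09% in controls and 16.7 and 19.2% in mutants. Against 79 members, 46 barcodes met the rule after thinning to 5000 UMIs, 64 with at least 4 markers and 145 with at least 2. The share of members in cluster 2 gave no value after thinning, as no matching cluster formed.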
